A study of Mus musculus with 4 samples.

Results

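Major histocompatibility complex (MHC) class I transcripts and the transcripts of the machinery that loads them with peptide were followed in cardiac endothelial cells of Smad3 knockout (KO) and wild-type (WT) mice. The set held 10 genes, picked by name from a table of 45882 gene IDs, and all 10 were among the 12325 that averaged 1 FPKM or more over the libraries. FPKM scales the fragments sequenced from a gene to the length of its transcript and to the size of the library. The genes were the classical heavy chains H2-K1 and H2-D1, the heavy chains H2-Q4, H2-Q5, H2-Q6 and H2-Q7 of the Q region, the light chain B2m, the peptide transporter subunit Tap1, the loading factor Tapbp and the immunoproteasome subunit Psmb8. They had been chosen with their levels in these same libraries known, so the differences between libraries below are a description and none of them was tested.

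The study asked how Smad3, a transcription factor that carries transforming growth factor-β signals to the nucleus, bears on the late response of the heart's endothelium to doxorubicin, an anthracycline used against cancer. RNA was sequenced from cells that bound beads against CD31, a surface protein of endothelium, after hearts of male mice had been perfused and digested with collagenase. The 4 groups were Smad3 KO mice given doxorubicin (Smad3 KO Dox), Smad3 KO mice given saline (Smad3 KO saline), WT mice given doxorubicin (WT Dox) and WT mice given saline (WT saline). Each group was 1 library, so no difference has a replicate check, and no SD or p-value is given. The mice received 4 weekly tail vein injections of doxorubicin at 5 mg/kg, or of saline, from 7 wk of age, and hearts were taken 9 wk after the last injection. The labels give 20 wk of age, about 1 wk later than this schedule gives. The KO allele was that of the Smad3-deficient line 129-Smad3tm1Par/J, a global knockout and not one of endothelium alone. The sources used here do not give the strain or litter of the WT mice, nor whether a library pooled several hearts. The content and sequence of the Q region differ between inbred strains, so a difference between genotypes at these genes cannot be told apart from a difference in the strain that the MHC region came from.

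A class I molecule is a heavy chain paired with β2-microglobulin, the product of B2m, that holds a short peptide at the cell surface for inspection by CD8 T cells and natural killer cells. Proteasomes cut the peptides, the transporter made of Tap1 and Tap2 moves them into the endoplasmic reticulum, and tapasin, the product of Tapbp, helps to fit them into the heavy chain. Interferons raise the transcription of many of these genes and replace catalytic subunits of the proteasome by Psmb8, Psmb9 and Psmb10. Endothelial cells normally carry class I molecules on their surface.

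Because the heavy chains are copies of each other, their sequences set how well a value per gene can be assigned. The first 120 bases of the exon that encodes the α1 domain, part of the peptide groove, are printed below from the GENCODE transcripts of GRCm38 on the coding strand, 5′ to 3′. Capitals mark bases that differ from H2-Q6.
H2-Q6: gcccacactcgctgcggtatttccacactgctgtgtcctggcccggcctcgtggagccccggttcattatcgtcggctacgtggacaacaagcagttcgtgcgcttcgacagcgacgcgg
H2-Q7: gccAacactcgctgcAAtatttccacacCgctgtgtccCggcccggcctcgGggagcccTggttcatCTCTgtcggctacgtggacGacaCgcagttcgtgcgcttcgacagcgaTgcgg
H2-Q5: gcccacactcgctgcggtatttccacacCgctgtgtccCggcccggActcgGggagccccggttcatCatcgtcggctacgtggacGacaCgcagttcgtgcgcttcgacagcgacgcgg
H2-Q4: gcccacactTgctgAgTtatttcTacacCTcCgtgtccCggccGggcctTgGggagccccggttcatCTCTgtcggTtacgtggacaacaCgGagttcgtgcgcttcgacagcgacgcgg
H2-K1: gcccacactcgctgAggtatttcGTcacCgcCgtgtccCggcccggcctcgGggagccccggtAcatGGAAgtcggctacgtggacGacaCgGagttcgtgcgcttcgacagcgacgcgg
H2-D1: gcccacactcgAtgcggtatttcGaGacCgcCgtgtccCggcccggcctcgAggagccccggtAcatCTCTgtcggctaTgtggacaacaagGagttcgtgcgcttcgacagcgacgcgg
These stretches lie on chromosome 17 in the second exon, at 35425108 to 35425227 for H2-Q6, 35439452 to 35439571 for H2-Q7, 35394357 to 35394476 for H2-Q5, 35379904 to 35380023 for H2-Q4, 33999884 to 34000003 for H2-K1 and 35263379 to 35263498 for H2-D1. H2-Q5 had 7 capitals and H2-Q7 had 14, against 18 in H2-Q4, 15 in H2-K1 and 14 in H2-D1. Over 270 bases of the exon, H2-Q5 matched H2-Q7 at 95.6% and H2-Q6 at 94.4% of positions, and H2-Q6 matched H2-Q7 at 93.0%. For H2-Q4, whose annotated exon runs to 354 bases, the last 270 were compared. H2-Q4 matched H2-Q5, H2-Q6 and H2-Q7 at 85.6% to 86.7% and H2-K1 and H2-D1 at 91.5% each. By this exon, H2-Q5, H2-Q6 and H2-Q7 form a close group, and H2-Q4 stood nearer to the classical chains than to its neighbours.

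A stretch of 150 bases, the read length in the labels, was found unchanged in another gene's transcripts for 9.68% of positions along H2-Q7, 5.99% along H2-Q6, 2.00% along H2-Q5 and 1.79% along H2-D1. The other gene was H2-Q5 or H2-Q6 for H2-Q7, H2-Q7 for both H2-Q6 and H2-Q5, and H2-Q1 for H2-D1. No such stretch was found in H2-K1, H2-Q4, B2m, Tap1, Tapbp or Psmb8. The reference carries the sequence of the C57BL/6J strain, and a mouse with another version of the region would give reads that this count does not describe. How reads that matched several copies were shared out is not given in the sources used here. The values of H2-Q5, H2-Q6 and H2-Q7 are therefore uncertain one by one, and their sum is given beside them.

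The promoters are shown because class I heavy chain genes share a block of short regulatory motifs upstream of their start. The 180 bases before the RefSeq transcript start (GRCm38.p6) are printed in the direction of transcription, with the motif matches in capitals.
H2-K1 (chr17:34000348-34000527, minus strand): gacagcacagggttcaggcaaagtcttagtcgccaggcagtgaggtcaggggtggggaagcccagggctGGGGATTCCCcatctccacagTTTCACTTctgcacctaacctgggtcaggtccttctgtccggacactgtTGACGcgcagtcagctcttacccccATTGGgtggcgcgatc
H2-D1 (chr17:35262914-35263093, plus strand): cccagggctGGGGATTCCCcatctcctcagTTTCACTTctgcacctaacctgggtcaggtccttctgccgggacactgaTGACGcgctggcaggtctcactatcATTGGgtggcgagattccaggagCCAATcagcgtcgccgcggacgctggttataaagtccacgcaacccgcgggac
H2-Q4 (chr17:35379437-35379616, plus strand): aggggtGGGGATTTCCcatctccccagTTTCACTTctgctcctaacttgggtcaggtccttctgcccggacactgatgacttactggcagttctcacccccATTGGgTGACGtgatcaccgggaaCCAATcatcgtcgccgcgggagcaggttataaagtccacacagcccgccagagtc
H2-Q6 (chr17:35424670-35424849, plus strand): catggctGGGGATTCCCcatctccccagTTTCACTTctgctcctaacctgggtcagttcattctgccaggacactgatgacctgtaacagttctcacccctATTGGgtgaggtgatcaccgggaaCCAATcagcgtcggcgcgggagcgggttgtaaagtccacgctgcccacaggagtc
H2-Q7 (chr17:35438975-35439154, plus strand): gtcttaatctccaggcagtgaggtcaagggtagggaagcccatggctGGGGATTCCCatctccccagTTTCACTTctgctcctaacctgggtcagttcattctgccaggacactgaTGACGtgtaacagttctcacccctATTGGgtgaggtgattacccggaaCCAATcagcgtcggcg
B2m (chr2:122147507-122147686, plus strand): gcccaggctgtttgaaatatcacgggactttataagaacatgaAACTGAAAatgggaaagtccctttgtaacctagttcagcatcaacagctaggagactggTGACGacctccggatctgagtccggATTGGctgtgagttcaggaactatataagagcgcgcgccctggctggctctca
The motifs were GGGGATT followed by any base and CC, a κB site bound by NF-κB factors, AANNGAAA, a core of sites bound by interferon regulatory factors, TGACG, a half-site of cAMP response elements, and CCAAT, the Y box bound by NF-Y, each searched on both strands. Their letters were chosen after these class I windows had been read, so the matches are a description. Matches on the other strand appear as TTTCACTT or ATTGG, and no printed match overlaps another. In windows from 250 bases before to 50 bases after the start, the κB letters stood in 0.266% of 27025 promoters, the interferon regulatory factor core in 24.2%, the half-site in 21.02% and the Y box in 37.9%. All 4 motifs stood together in 4 promoters, those of H2-K1, H2-D1, H2-Q4 and H2-Q7. The H2-Q6 window held 3 of the 4, without the TGACG letters, and the B2m window held 3, without the κB letters. The Tap1 window held 2, the Tapbp window 1 and the Psmb8 window 0. The κB match began 171 to 174 bases before the start in H2-D1, H2-Q4 and H2-Q6, at -133 in H2-Q7 and at -111 in H2-K1, and the interferon regulatory factor core followed 20 or 21 bases after it in each. A window was at hand for 9 of the 10 genes, and for H2-Q5 none was. Binding to these sites was not measured.

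The libraries corresponded to about 21400000 fragments in Smad3 KO Dox, 26100000 in Smad3 KO saline, 26300000 in WT Dox and 28500000 in WT saline, estimated from the steps between low FPKM values. At this depth the lowest member value, H2-Q5 in WT Dox, stood for about 112 fragments. Smad3 (GRCm38 chromosome 9, 63646767 to 63757994), the targeted gene, had 0.848 FPKM in Smad3 KO Dox and 1.02 FPKM in Smad3 KO saline, against 2.09 FPKM in WT Dox and 2.95 FPKM in WT saline. On average the KO libraries differed from the WT libraries by -1.06 on the log2 scale (-0.86 if the pseudocount is 1). The genotype tag named the other genotype for the libraries titled Smad3 KO saline and WT Dox. Groups follow the titles, which the column names of the table share, and grouping by tag gave -0.29. Pecam1, which encodes CD31, had 401 and 511 FPKM in Smad3 KO Dox and Smad3 KO saline, against 488 and 499 FPKM in WT Dox and WT saline, and all 15 endothelial markers listed were present in every library.

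Differences are given between log2(FPKM + 0.5) values of a pair of libraries, a scale that understates changes of low genes. The words rose and fell are kept for differences of 1 or more in size, called the size rule below. Of the 10 genes, 7 rose in Smad3 KO Dox against WT Dox (H2-K1, H2-Q4, H2-Q5, H2-Q6, H2-Q7, Tap1 and Psmb8), where 9.93% of all genes passed the same size, 6.18% upward and 3.75% downward. In Smad3 KO saline against WT saline 3 rose (H2-Q5, H2-Q6 and H2-Q7), beside 4.72% of all genes, 1.7% upward and 3.03% downward. In Smad3 KO Dox against Smad3 KO saline 2 rose (H2-Q6 and H2-Q7), beside 6.86% of all genes, 4.02% upward and 2.84% downward. In WT Dox against WT saline 0 of 10 passed, beside 3.72% of all genes, 1.03% upward and 2.69% downward. None of the 10 fell in any of the comparisons. Over all genes the split of higher against lower calls moved with the scaling, from 762 and 462 in Smad3 KO Dox against WT Dox to 577 and 611 with median-ratio scaling, while the 7 members stayed called. The shares over all genes stand here as background only, since these contrasts had been used to choose the 10. Each genotype comparison shares a library with a treatment comparison, so the comparisons are not independent of each other.

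**Figure D1:**
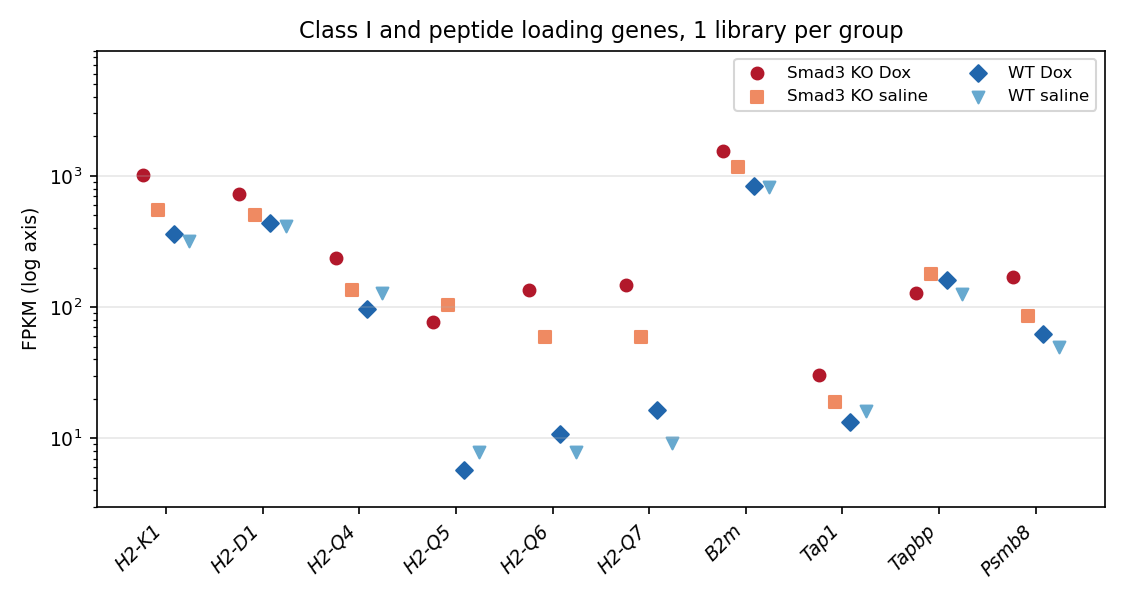
FPKM (log axis) of the 10 class I and loading genes, with 1 point per library. The KO points of H2-Q5, H2-Q6 and H2-Q7 lie between 58.7 and 148 FPKM and the WT points between 5.76 and 16.3 FPKM, whereas the 4 points of Tapbp lie between 125 and 178 FPKM with the genotypes mixed.

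H2-K1 (GRCm38 chromosome 17, 33996017 to 34000347, minus strand), a classical heavy chain expressed by nearly all nucleated cells, had 1018.5 FPKM in Smad3 KO Dox, 549 FPKM in Smad3 KO saline, 361 FPKM in WT Dox and 319.7 FPKM in WT saline. It was high in both KO libraries and highest with doxorubicin. The log2 difference of Smad3 KO Dox from WT Dox was 1.497, and 1.13 after removal of a running median over transcript length. Smad3 KO saline stood 0.78 above WT saline and Smad3 KO Dox 0.89 above Smad3 KO saline, both short of the size rule, while the WT libraries differed by 0.17.

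H2-D1 (35262730 to 35267499, plus strand), the other classical chain, had 729.7 FPKM in Smad3 KO Dox and 500.2 FPKM in Smad3 KO saline, against 438 FPKM in WT Dox and 418 FPKM in WT saline. The order of the libraries was that of H2-K1 with smaller steps, and the log2 difference between the Dox libraries, 0.74, did not reach 1. Smad3 KO saline differed from WT saline by 0.26, and by -0.13 with FPKM rescaled to a sum of 1000000 in each library. The ratio of H2-K1 to H2-D1 was 1.40 in Smad3 KO Dox and 1.10 in Smad3 KO saline, against 0.823 in WT Dox and 0.764 in WT saline. H2-K1 was thus the more abundant classical transcript in the KO libraries and H2-D1 in the WT libraries, per length of transcript.

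H2-Q4 (35379617 to 35385290, plus strand), a heavy chain of the Q region, had 238 FPKM in Smad3 KO Dox, 135 FPKM in Smad3 KO saline, 96.1 FPKM in WT Dox and 128 FPKM in WT saline. It rose by 1.303 on the log2 scale in Smad3 KO Dox against WT Dox, and by 0.98 with the running median over length removed, which does not reach 1. The saline libraries differed by 0.08, and by -0.30 with the rescaling to 1000000. Doxorubicin and saline libraries differed by 0.81 in the KO mice and by -0.41 in the WT mice. The gene Gm11131 overlaps H2-Q4 on the opposite strand at 0.791 to 1.74 FPKM. Because the use of strand is not given in the sources used here, values of overlapping genes cannot be told apart.

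H2-Q5, H2-Q6 and H2-Q7, which lie next to each other on the plus strand, showed the widest gaps among the 10 genes. H2-Q7 (35439155 to 35443773), which encodes a Qa-2 antigen, had 148 FPKM in Smad3 KO Dox and 59.2 FPKM in Smad3 KO saline, against 16.3 FPKM in WT Dox and 9.12 FPKM in WT saline. H2-Q6 (35424850 to 35430055), a near copy of H2-Q7, had 135 FPKM in Smad3 KO Dox and 58.7 FPKM in Smad3 KO saline, against 10.8 FPKM in WT Dox and 7.83 FPKM in WT saline. H2-Q5 (35394126 to 35397800), which the annotation calls a polymorphic pseudogene, had 77.5 FPKM in Smad3 KO Dox and 104 FPKM in Smad3 KO saline, against 5.76 FPKM in WT Dox and 7.83 FPKM in WT saline. For each of the 3 genes, both KO libraries stood far above both WT libraries. Within the KO mice, H2-Q6 and H2-Q7 were higher with doxorubicin, whereas H2-Q5 was higher with saline.

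The log2 differences between the Dox libraries were 3.64 for H2-Q5, 3.58 for H2-Q6 and 3.15 for H2-Q7. Those between the saline libraries were 3.65, 2.83 and 2.63 in the same order. As plain ratios of FPKM, H2-Q5 was 13.5-fold higher in the KO than in the WT library with doxorubicin and 13.3-fold higher with saline. H2-Q6 was 12.5-fold and 7.49-fold higher in the same pairs, and H2-Q7 was 9.11-fold and 6.48-fold higher. These were the only members that passed a log2 difference of 2, and they did so in both genotype comparisons. Among all 12325 genes, 15 were higher by at least 2 in both genotype comparisons, and 3 of them were these neighbours, which had been chosen with their values known. Several of the other genes stood at 0.05 FPKM, the lowest value of the table, in both WT libraries.

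Summed, the transcripts of H2-Q5, H2-Q6 and H2-Q7 came to 360.5 FPKM in Smad3 KO Dox and 222 FPKM in Smad3 KO saline, against 32.8 FPKM in WT Dox and 24.8 FPKM in WT saline. FPKM divides by transcript length, which differs among the 3 copies, so the sum still depends in part on how reads were divided. It differed by 3.44 between the Dox libraries and by 3.14 between the saline libraries on the log2 scale. The difference of Smad3 KO Dox from Smad3 KO saline was 0.70 for the sum, so that the calls for H2-Q6 and H2-Q7 in that comparison ended when the copies were summed. H2-Q5 made up 21.5% of the sum in Smad3 KO Dox and 46.9% in Smad3 KO saline, against 17.5% in WT Dox and 31.6% in WT saline. Its share was lower in the Dox library of each genotype.

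Of the summed FPKM of the 6 heavy chains, H2-Q5, H2-Q6 and H2-Q7 together took 15.4% in Smad3 KO Dox and 15.8% in Smad3 KO saline, against 3.54% in WT Dox and 2.78% in WT saline. The share was alike in the KO libraries, although the 6 heavy chains summed to 2346 FPKM in Smad3 KO Dox and 1407 FPKM in Smad3 KO saline. The WT libraries summed to 928 FPKM with doxorubicin and 890.5 FPKM with saline. H2-D1 took 31.1% and 35.6% in Smad3 KO Dox and Smad3 KO saline, against 47.2% and 47.0% in WT Dox and WT saline. Both shares differed more between the genotypes than between treatments within a genotype.

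**Figure D2:**
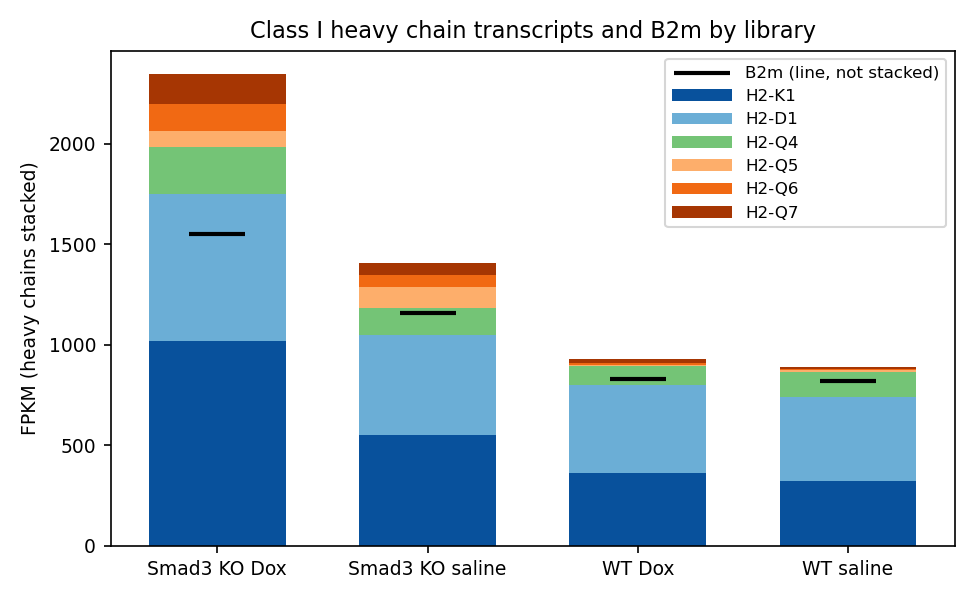
Stacked FPKM of the 6 class I heavy chains in each library, with a black line at the FPKM of B2m. The orange parts (H2-Q5, H2-Q6 and H2-Q7) sum to 360.5 and 222 FPKM in Smad3 KO Dox and Smad3 KO saline, against 32.8 and 24.8 FPKM in WT Dox and WT saline.

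The other measured genes of the Q region were low in every library. H2-Q1 had 1.35 and 1.20 FPKM in Smad3 KO Dox and Smad3 KO saline, against 0.690 and 1.08 FPKM in WT Dox and WT saline. H2-Q10 had 1.93 and 2.32 FPKM in the KO libraries, against 1.81 and 3.50 FPKM in the WT libraries, in the same order of treatments. H2-Q2 was listed at 0.05 FPKM, the lowest value of the table, in all 4 libraries. Among the genes measured here, values of the Q region far above WT in both KO libraries were therefore held by H2-Q5, H2-Q6 and H2-Q7. H2-Q4 stood well above WT in Smad3 KO Dox only, since its saline libraries differed by 0.08.

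B2m (GRCm38 chromosome 2, 122147686 to 122153083, plus strand), which encodes the light chain that every class I heavy chain needs to reach the surface, had 1554 FPKM in Smad3 KO Dox and 1159.9 FPKM in Smad3 KO saline, against 831 FPKM in WT Dox and 819 FPKM in WT saline. It was the most abundant of the 10 transcripts in each library and the only one that lies outside chromosome 17. Its log2 difference was 0.90 between the Dox libraries and 0.50 between the saline libraries, neither of which reached 1. B2m is a short transcript, and with the running median over length removed the difference between the Dox libraries was 0.45.

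Summed heavy chain FPKM over B2m FPKM was 1.51 in Smad3 KO Dox and 1.21 in Smad3 KO saline, against 1.12 in WT Dox and 1.09 in WT saline. Without H2-Q5, H2-Q6 and H2-Q7 the ratio was 1.28 in Smad3 KO Dox and 1.02 in Smad3 KO saline, against 1.08 in WT Dox and 1.06 in WT saline. The higher ratio of Smad3 KO saline over WT saline was thus seen only with these 3 chains counted, and that of Smad3 KO Dox with and without them.

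Tap1 (chromosome 17, 34187553 to 34197225, plus strand), a subunit of the transporter that brings peptides into the endoplasmic reticulum, had 30.3 FPKM in Smad3 KO Dox and 18.8 FPKM in Smad3 KO saline, against 13.3 FPKM in WT Dox and 16.05 FPKM in WT saline. It rose by 1.16 in Smad3 KO Dox against WT Dox, and by 0.99 with the running median over length removed, just under 1. Its partner Tap2 had 41.3 and 37.8 FPKM in Smad3 KO Dox and Smad3 KO saline, against 36.3 and 40.0 FPKM in WT Dox and WT saline. The log2 difference of Tap2 between the Dox libraries was 0.19, so the listed values of the transporter subunits did not move together. Psmb9 overlaps Tap1 on the opposite strand and had 43.4 FPKM in Smad3 KO Dox and 16.2 FPKM in WT Dox. Without the use of strand, the values of Tap1 and Psmb9 cannot be told apart where they overlap.

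Tapbp (33915899 to 33929292, plus strand), which bridges the transporter and the empty heavy chain, had 127 FPKM in Smad3 KO Dox and 178 FPKM in Smad3 KO saline, against 160.0 FPKM in WT Dox and 125 FPKM in WT saline. It was the only one of the 10 whose KO libraries did not both stand above both WT libraries. Smad3 KO Dox was 0.33 below WT Dox on the log2 scale, while Smad3 KO saline was 0.50 above WT saline. Zbtb22 overlaps Tapbp on the same strand and had 13.02 to 22.1 FPKM.

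Psmb8 (34197721 to 34201454, plus strand), a catalytic subunit of the immunoproteasome also known as LMP7, had 169.5 FPKM in Smad3 KO Dox and 85.7 FPKM in Smad3 KO saline, against 62.9 FPKM in WT Dox and 49.2 FPKM in WT saline. It rose by 1.42 between the Dox libraries and differed by 0.79 between the saline libraries. Smad3 KO Dox stood 0.98 above Smad3 KO saline, just short of the size rule, and passed it (1.22) with the rescaling to 1000000. Psmb9, a further immunoproteasome subunit whose gene overlaps Tap1 on the opposite strand, rose by 1.40 between the Dox libraries, at 43.4 FPKM in Smad3 KO Dox and 21.9 FPKM in Smad3 KO saline, against 16.2 FPKM in WT Dox and 11.98 FPKM in WT saline. Its call ended (0.98) when the running median over transcript length was removed.

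Psmb10, the remaining inducible catalytic subunit, had 98.4 and 66.8 FPKM in Smad3 KO Dox and Smad3 KO saline, against 60.1 and 44.7 FPKM in WT Dox and WT saline. All 5 genes of the immunoproteasome list, which adds the activator subunits Psme1 and Psme2, were higher in both KO libraries than in both WT libraries, and 2 of 5 with the rescaling to 1000000. So were all 3 constitutive catalytic subunits, Psmb5, Psmb6 and Psmb7 (2 of 3 with median-ratio scaling and 1 with the rescaling to 1000000). Without rescaling, 28% of all genes had this order. The median log2 difference of the constitutive subunits was 0.98 between the Dox libraries, with none past the size rule. With the rescaling to 1000000, 2 of these 3 passed it, and all 3 did relative to the endothelial markers (median 1.24). The immunoproteasome list of 5 had a median of 0.71 between the Dox libraries, which the activator subunits Psme1 (0.66) and Psme2 (0.46) lowered. Its catalytic subunits stood at 1.42 (Psmb8), 1.40 (Psmb9) and 0.71 (Psmb10). With the running median over transcript length removed, the median was 0.52 for the constitutive subunits and 0.27 for the list of 5. The ratio of Psmb8 to Psmb5, the subunit it replaces, was 3.34 in Smad3 KO Dox and 2.95 in Smad3 KO saline, against 2.18 in WT Dox and 1.77 in WT saline. For Psmb9 and Psmb6 the ratio was 0.247 and 0.197 in the KO libraries, against 0.182 and 0.158 in the WT libraries. For Psmb10 and Psmb7 it was 0.793 and 0.862 in the KO libraries, against 0.958 and 0.706 in the WT libraries. The ratio was higher in both KO libraries for Psmb8 and Psmb9, and the genotypes overlapped for Psmb10.

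**Figure D3:**
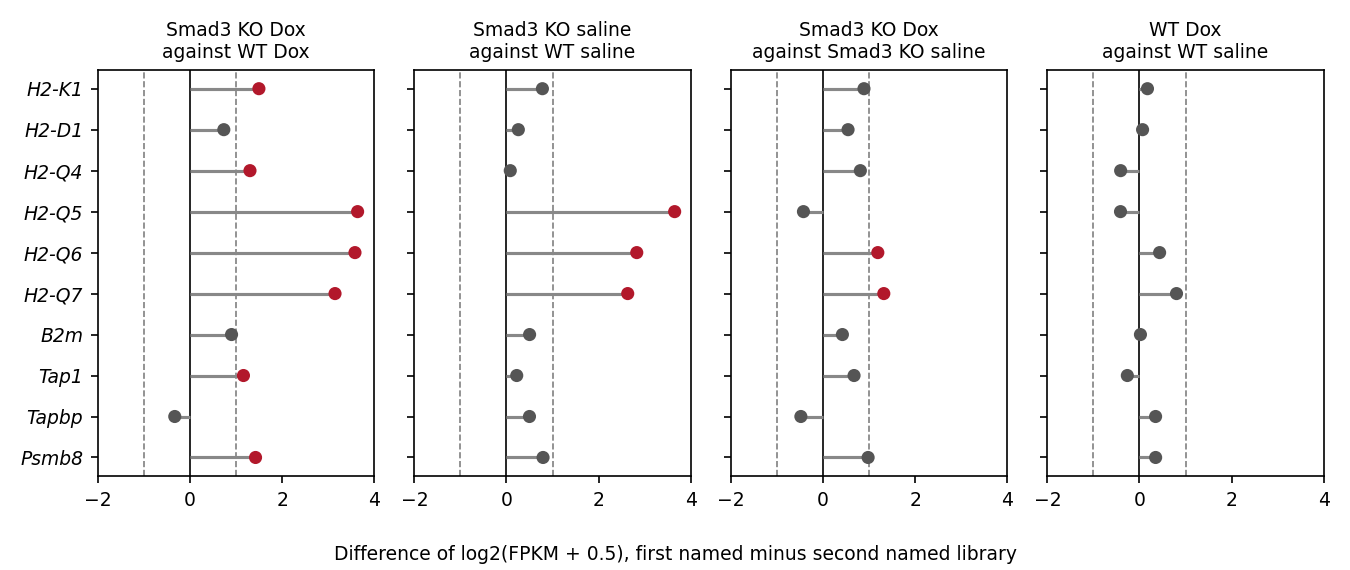
Differences of log2(FPKM + 0.5) for the 10 genes in each of the 4 comparisons, first named minus second named library, with dashed lines at -1 and 1. Red points pass the size rule: 7 between the Dox libraries, 3 between the saline libraries, 2 between the KO libraries and 0 between the WT libraries.

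Taken by genotype, 9 of the 10 genes were higher in both KO libraries than in both WT libraries (6 with FPKM rescaled to a sum of 1000000, where H2-D1, H2-Q4 and Tap1 stood -0.13, -0.30 and -0.16 from WT saline in Smad3 KO saline), beside 28% of all genes (9.60% with that rescaling). Taken by treatment, 0 of the 10 were higher in both Dox than in both saline libraries, beside 12.1% of all genes. The median difference of the 10 was 1.36 in Smad3 KO Dox against WT Dox, where the median of all genes was 0.12. It was 0.64 in Smad3 KO saline against WT saline (all genes -0.01), 0.74 between the KO libraries (Dox minus saline, all genes 0.05) and 0.12 between the WT libraries (all genes -0.06). The differences were wide in the genotype comparisons, at -0.33 to 3.64 between the Dox libraries and 0.08 to 3.65 between the saline libraries, and narrow in the WT treatment comparison, at -0.41 to 0.80.

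The genes next to these were examined because 9 of the 10 lie in or near the MHC region of chromosome 17. Of the 117 genes of the region that averaged 1 FPKM or more, 108 were outside the set. Of those, 34 (31.5%) were higher in both KO than in both WT libraries, near the 28% of all genes. None of the 108 was higher by 1 or more in both genotype comparisons. Of all 12325 genes 64 were, so few that a count of 0 among 108 says little about the region. H2-T22 came near, at 1.02 between the saline libraries and 0.97 between the Dox libraries. The 3 genes of the region that were higher by at least 2 in both were H2-Q5, H2-Q6 and H2-Q7. A shorter list of 48 other MHC region genes overlapped these 108. In Smad3 KO Dox against WT Dox, 1 of the 48 rose (Mrps18b, a mitochondrial ribosomal protein, 1.25). In the same comparison 2 fell (Tnxb, an extracellular matrix protein, -1.20, and Brd2, a chromatin reader, -1.04). Of all genes 6.18% rose and 3.75% fell there. Further genes of the 108 passed the size rule there, among them Psmb9 (1.40) and H2-T10 (1.28) upward and Lst1 (-2.09) and C4b (-1.34) downward.

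**Figure D4:**
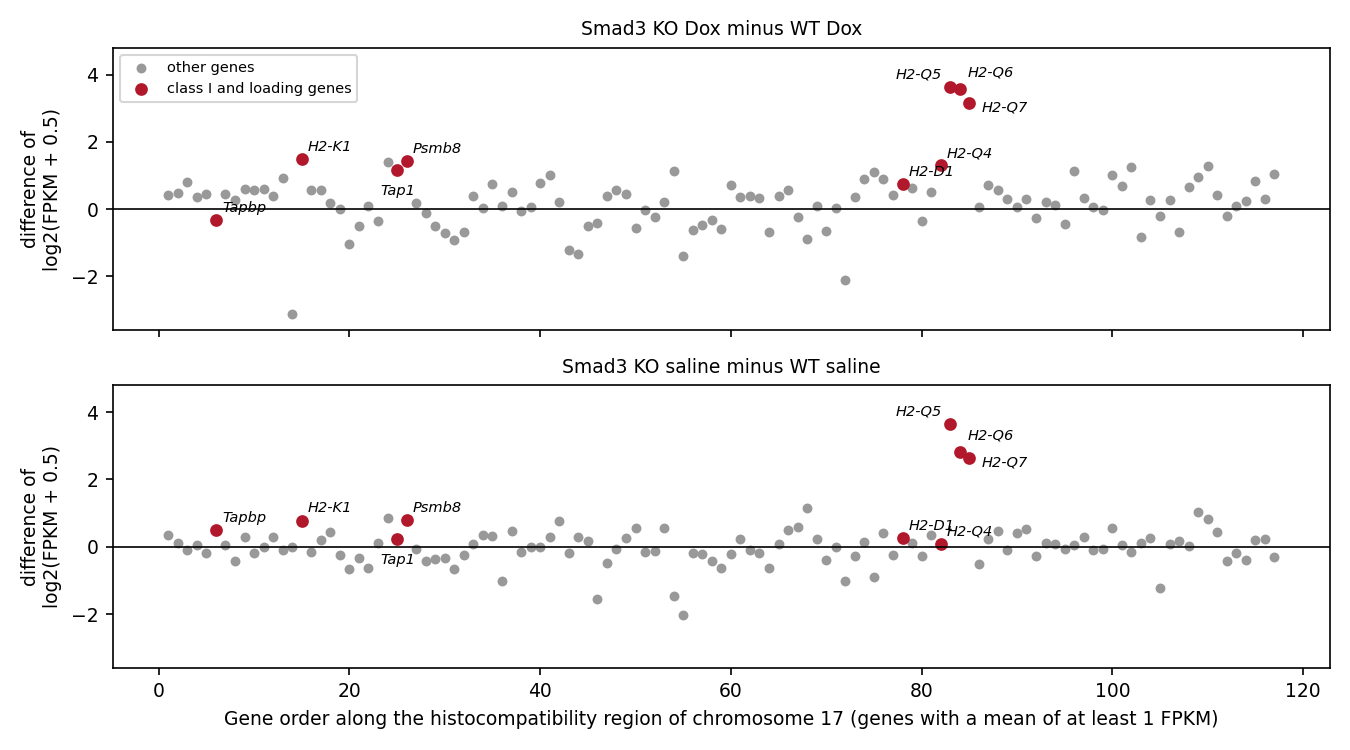
Genotype differences of log2(FPKM + 0.5) for 117 genes in their order along the MHC region, with Dox libraries above and saline libraries below. Red points are the class I and loading genes, and H2-Q5, H2-Q6 and H2-Q7 stand as neighbours between 2.63 and 3.65 in both panels, above the other genes of the region.

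Heavy chains of the T and M regions, most of which present a narrow range of ligands, were read beside these. Of 5 genes above 1 FPKM, H2-T10 rose by 1.28 in Smad3 KO Dox against WT Dox, at 10.98 FPKM in Smad3 KO Dox and 7.08 FPKM in Smad3 KO saline, against 4.21 FPKM in WT Dox and 3.75 FPKM in WT saline. H2-T22 rose by 1.02 in Smad3 KO saline against WT saline, at 73.7 FPKM in Smad3 KO Dox and 53.7 FPKM in Smad3 KO saline, against 37.5 FPKM in WT Dox and 26.2 FPKM in WT saline. H2-T24 stood the other way between the Dox libraries (-0.69), with 39.3 and 50.9 FPKM in Smad3 KO Dox and Smad3 KO saline, against 63.5 and 45.2 FPKM in WT Dox and WT saline. In this list 3 of 5 genes were higher in both KO libraries, beside 28% of all genes, and the median was 0.91 between the Dox libraries. With the rescaling to 1000000 it was 2 of 5 genes, and H2-T22 also lost its call. With the running median over transcript length removed, the calls of H2-T10 (0.92) and H2-T22 (0.94) ended, H2-T24 fell between the Dox libraries (-1.01) and the median there was 0.51.

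In the list of 10 genes for peptide transport and loading, which holds B2m, Tap1 and Tapbp, 1 rose (Tap1) and 1 fell (Hspa5, an endoplasmic reticulum chaperone, -1.01) in Smad3 KO Dox against WT Dox. Hspa5 had 169 and 291 FPKM in Smad3 KO Dox and Smad3 KO saline, against 339.9 and 445 FPKM in WT Dox and WT saline. Its call ended with the rescaling to 1000000 (-0.97) and relative to the endothelial markers (-0.75). The list's median was -0.21 between the Dox libraries, below the 0.12 of all genes (0.05 beside 0.38 relative to the endothelial markers). Of its 10 genes, 2 (B2m and Tap1) were higher in both KO libraries, beside 28% of all genes. Between the saline libraries the list's median was 0.14, above the -0.01 of all genes (-0.24 beside -0.38 with the rescaling to 1000000). Class I-like proteins outside the region, such as the Fc receptor Fcgrt, had 0 of 5 past the size rule. Over the comparisons, 3.72% to 9.93% of all genes passed it.

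Genes of the class I transcription machinery and of interferon signalling were read next, as background to the promoter motifs. Of 16 regulators above 1 FPKM, 0 passed the size rule in any comparison, and their median between the Dox libraries was -0.09. Since only 3.72% to 9.93% of all genes passed the size rule over the comparisons, a count of 0 among 16 says little. Relative to the endothelial markers, 2 of the 16 passed it between the Dox libraries, where the median was 0.17. Nlrc5, the class I transactivator, had 1.15 and 1.80 FPKM in Smad3 KO Dox and Smad3 KO saline, against 1.27 and 0.693 FPKM in WT Dox and WT saline. Irf1 had 332 and 411 FPKM in the KO libraries, against 294 and 389 FPKM in the WT libraries.

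Of 26 interferon-induced genes, 1 rose in Smad3 KO Dox against WT Dox (Ifit1, 1.14), beside 6.18% of all genes upward. Their median was 0.03 (-0.08 with median-ratio scaling). Relative to the endothelial markers 4 rose and the median was 0.29, beside 0.38 for all genes, while the call of Ifit1 ended (0.96) with the running median over transcript length removed. Ifit1 had 59.5 and 18.6 FPKM in Smad3 KO Dox and Smad3 KO saline, against 26.7 and 15.2 FPKM in WT Dox and WT saline. In Smad3 KO Dox against Smad3 KO saline 3 rose (Ifit1 1.65, the chemokine Cxcl10 1.12 and the GTPase Gbp4 1.04), and in Smad3 KO saline against WT saline 2 fell (Mx2 -1.24 and Cxcl10 -1.23). Mx2 also fell in WT Dox against WT saline (-1.17). Of the 26, 4 were higher in both KO libraries than in both WT libraries, beside 28% of all genes. These were Gbp2, Gbp3, Igtp and Iigp1, with differences of 0.46, 0.70, 0.83 and 0.91 between the Dox libraries. Among 7 interferon receptor and kinase genes, Ifngr1, a receptor chain for interferon-γ, fell by 1.08 between the Dox libraries, at 34.9 and 70.1 FPKM in Smad3 KO Dox and Smad3 KO saline, against 74.1 and 98.1 FPKM in WT Dox and WT saline.

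Class II genes, which serve antigen-presenting cells, gave 0 of 8 past the size rule in each comparison (2 lower between the Dox libraries with median-ratio scaling). Over the comparisons, 3.72% to 9.93% of all genes passed it. Beside 28% of all genes, 0 of the 8 class II genes were higher in both KO than in both WT libraries. Their median was -0.50 between the Dox libraries and -0.35 between the saline libraries. Cd74, the invariant chain, had 227 and 230 FPKM in Smad3 KO Dox and Smad3 KO saline, against 443 and 273 FPKM in WT Dox and WT saline.

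**Figure D5:**
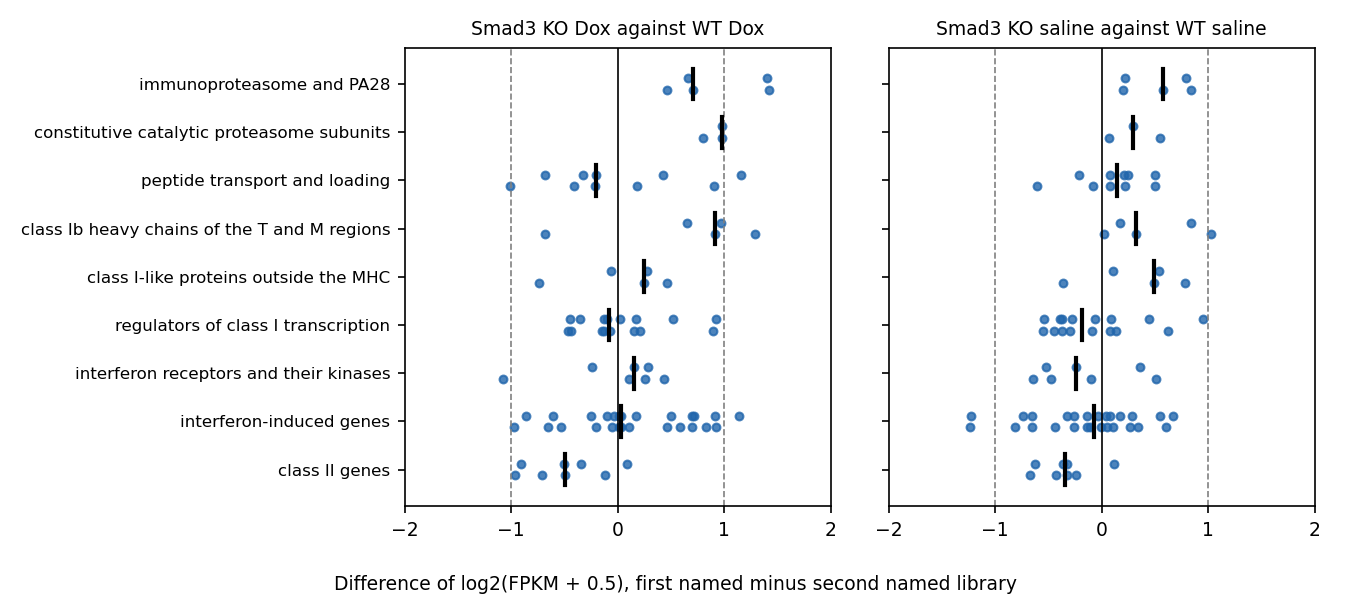
Differences of log2(FPKM + 0.5) between genotypes for each gene of 9 related lists, with 1 point per gene, a black bar at the list's median and dashed lines at -1 and 1. Between the Dox libraries the medians are 0.71 for the immunoproteasome list, which includes activator subunits, and 0.98 for the constitutive catalytic subunits. They are 0.03 for interferon-induced genes and -0.50 for class II genes.

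RNA of other cell types differed between the libraries beside the class I genes. In bulk samples, fewer cells of a type and less RNA per cell cannot be told apart. The 16 macrophage and monocyte markers, from cells that carry class I and class II molecules, summed to 271 FPKM in Smad3 KO Dox and 428 FPKM in Smad3 KO saline, against 708 FPKM in WT Dox and 696 FPKM in WT saline, with Cd68 at 7.16 and 13.5 FPKM against 22.1 and 20.3 FPKM. They were lowest in Smad3 KO Dox, and 10 of the 15 above 1 FPKM fell in Smad3 KO Dox against WT Dox. The 13 T and NK cell markers summed to 16.3 and 15.5 FPKM in Smad3 KO Dox and Smad3 KO saline, against 10.6 and 11.8 FPKM in WT Dox and WT saline. Cd3e was at 0.539 to 0.912 FPKM. The 3 above 1 FPKM on average (Cd3g, Cd4 and Trac) were all higher in both KO libraries than in both WT libraries. With the rescaling to 1000000 it was 1 of them. This order was held by 28% of all genes without rescaling. The markers below 1 FPKM were mixed between the Dox libraries. Gzma (-0.31), Gzmb (-0.12), Prf1 (-0.51) and Ncr1 (-0.39) were lower with the KO. Cd3d (0.97), Cd3e (0.43), Cd8a (0.23), Cd8b1 (0.87) and Nkg7 (0.69) were higher, and Klrb1c stood at 0.05 FPKM in every library. Cd4, a coreceptor of helper T cells, had 2.88 FPKM in Smad3 KO Dox and 0.969 FPKM in Smad3 KO saline, against 0.891 FPKM in WT Dox and 0.968 FPKM in WT saline. It rose by 1.28 between the Dox libraries, and the Smad3 KO saline and WT saline values were close. Trac, a T cell receptor chain, was the largest part of each T and NK cell sum. It had 7.26 and 10.49 FPKM in Smad3 KO Dox and Smad3 KO saline, against 6.18 and 6.74 FPKM in WT Dox and WT saline. The 7 dendritic cell markers summed to 18.0 and 20.2 FPKM in Smad3 KO Dox and Smad3 KO saline, against 25.2 and 30.8 FPKM in WT Dox and WT saline.

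Among the 9 marker lists, that of red cells had the largest median differences between genotypes, at 2.79 between the Dox libraries and 1.22 between the saline libraries. The 7 erythroid markers summed to 28548.5 FPKM in Smad3 KO Dox and 10289 FPKM in Smad3 KO saline, against 4384 FPKM in WT Dox and 4423 FPKM in WT saline. The 13 cardiomyocyte markers summed to 2491 and 1834 FPKM in the KO libraries, against 1512 and 1162 FPKM in the WT libraries. Of the 12 above 1 FPKM, 8 were higher in both KO than in both WT libraries, beside 28% of all genes. Myh6 was not among them, at 87.6 and 153 FPKM in Smad3 KO Dox and Smad3 KO saline, against 112 and 68.5 FPKM in WT Dox and WT saline. The endothelial markers summed to 2962 and 3756 FPKM in Smad3 KO Dox and Smad3 KO saline, against 3727 and 3735 FPKM in WT Dox and WT saline. Of these 15 markers 0 rose and 3 fell in Smad3 KO Dox against WT Dox (Vwf -1.63, Cdh5 -1.15 and Ptprb -1.10), and the median was -0.26. Cdh5, an adhesion protein of endothelial junctions, had 168 and 341 FPKM in Smad3 KO Dox and Smad3 KO saline, against 372 and 475 FPKM in WT Dox and WT saline. The part of endothelial, red cell, muscle, T cell and macrophage RNA in the class I differences was not tested. Relative to the median of the endothelial markers, the log2 difference of B2m between the Dox libraries was 1.16 and those of the 7 risen genes stayed above 1. This scaling moved the median of all genes to 0.38 there and put 14.9% of them past the size rule, in place of 9.93%. It therefore does not separate the class I genes from a shift of all genes. With the running median over transcript length removed, B2m differed by 0.45 and 5 of the 7 calls stayed.

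The profile over the 4 libraries was compared with that of 7714 genes outside the set that averaged 5 FPKM or more, by the distance between centred log2(FPKM + 0.5) values. Nearest to the sum of H2-Q5, H2-Q6 and H2-Q7 stood the globin genes Hba-a2 (distance 1.29) and Hba-a1 (1.39), with RP24-328P2.8, Nudt16 and Tbx3os1 between them. Hba-a1 had 9156 and 2693 FPKM in Smad3 KO Dox and Smad3 KO saline, against 1011 and 1157 FPKM in WT Dox and WT saline. No gene lay close to the sum, since a distance of 1.29 is wide on this scale. Nearest to B2m stood Mrpl11, Egflam, Ndufv1, Ndufa9 and Fam46c, at distances of 0.044 to 0.058. With 4 libraries, such likeness is a description of the order and size of 4 values.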

How the data were processed

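FPKM values per gene for the 4 libraries were computed and deposited by the authors, and no counts were used here. CASAVA, STAR and GRCm38.p4 are named in the processing notes of the submitters, while the study's methods name TopHat, Bowtie and Cufflinks, so the aligner is uncertain. The annotation release, the use of strand and the handling of reads with several matches were not stated there. The 45952 lines of the table stood for 45882 gene IDs, of which 51 had several lines (121 in all) that were added up, and 20531 IDs stood at 0.05 FPKM in all 4 libraries. Per-sample columns left unused numbered 0.

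Differences of log2(FPKM + 0.5) were taken between pairs of libraries among genes that averaged 1 FPKM or more, with a size rule of 1, in Python 3.11.15, pandas 2.3.3 and numpy 2.4.6. No model was fitted, as each group had 1 library. The members and gene lists were chosen with earlier results of these data known. Genes named besides the 10 were Smad3, up to 3 genes per list that passed the size rule by most, the defining gene of cell type lists, a set of class I regulators and copies, and the 5 nearest profiles. Cd74, H2-T24, Fcgrt, Cd3g, Trac, Lst1, C4b and genes that overlap a member were named after their values were seen. So were the T and NK cell markers below 1 FPKM other than Cd3e, and Gbp2, Gbp3, Igtp and Iigp1. H2-Q8, H2-Q9, H2-T9 and Irf8 were not analysed here, and some genes of the rule are not reported here.

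Depth was estimated from the steps of low FPKM values of 441 to 497 genes per library with fitted fragment lengths of 260 to 300 bases. Of these values, 79.8% to 82.1% lay within 0.1 of a whole number of fragments, so no count test was run, and fragments per gene are approximate. The steps were tested on simulated data. Gene positions and types came from GENCODE on GRCm38, which matched all 10 members, and promoter windows from RefSeq on GRCm38.p6. Alternatives changed the pseudocount, filter, scaling, size rule and grouping, and the removal of a running median over transcript length (501 genes) was chosen after seeing the data.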

Additional observations from a re-analysis of the deposited data

Results flagged for a closer look

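For 3 genes the doxorubicin and saline libraries differed in opposite directions in the genotypes. For H2-Q4 the difference of Dox from saline on the log2 scale was 0.81 in Smad3 KO and -0.41 in WT mice, a gap of 1.22. For Tap1 it was 0.67 in Smad3 KO and -0.26 in WT mice, a gap of 0.94. For Tapbp it was -0.48 in Smad3 KO and 0.35 in WT mice, a gap of -0.83. The same gap of -0.83 is the difference of KO from WT for Tapbp with doxorubicin (-0.33) minus that with saline (0.50). With 1 library in each group, none of these gaps was tested. With each scaling tried, the direction of all 3 within each genotype was the one given here.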

How the results depend on the processing

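No paired analysis was possible because each group had 1 library, and no replicate could be left out. Of 320 member differences under alternatives, 309 kept their direction where called and their side of the size rule, 8 newly passed it and 3 no longer did (H2-Q4 0.98 and Tap1 0.99 between the Dox libraries and H2-Q6 0.98 in Smad3 KO Dox against Smad3 KO saline, each with the running median over length removed). A size rule of 2 left 3 in place of 7 genes in Smad3 KO Dox against WT Dox and 0 in place of 2 in Smad3 KO Dox against Smad3 KO saline. In that treatment comparison the count of 2 became 5 with FPKM rescaled to a sum of 1000000, 6 relative to the endothelial markers, 1 with the running median removed and 0 with H2-Q5, H2-Q6 and H2-Q7 summed. Summing them gave 1 in place of 3 in Smad3 KO saline against WT saline. The Smad3 check, -1.06, was -0.86 with a pseudocount of 1 and -0.29 when grouped by the genotype tag. The rescaling to 1000000 moved the median of all genes to 0.29 in Smad3 KO Dox against Smad3 KO saline, -0.38 between the saline libraries (KO minus WT) and -0.24 between the WT libraries, and the endothelial scaling moved it to 0.38 in Smad3 KO Dox against WT Dox and 0.40 in Smad3 KO Dox against Smad3 KO saline, so the added calls stand beside a shift of all genes. Higher and lower calls over all genes numbered 209 and 373 between the saline libraries, KO minus WT (130 and 1276 with the rescaling). Between the KO libraries, Dox minus saline, they numbered 495 and 350 (425 and 410 with median-ratio scaling, 1009 and 247 with the rescaling), and between the WT libraries 127 and 332 (111 and 630 with the rescaling). Replacing only FPKM below 0.5 put 13.1% of all genes past the size rule in Smad3 KO Dox against WT Dox, in place of 9.93%, and left the 7 members called. Depth limits none of the 10 genes at the estimated fragment numbers, whereas the absence of replicates limits all of them.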
